A study of Mus musculus with 6 samples.

Results

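Smooth muscle and pericyte marker genes were followed in cultured embryonic cardiomyocytes after knockdown of DNA methyltransferase 1 (DNMT1). The genes are Tagln, Cnn1, Cnn2, Smtn, Lmod1, Cald1 and Synpo2, which encode actin-binding and contractile proteins, and Rgs5, Pdgfrb and Cspg4, which mark pericytes. They were taken by name, as 10 of the 43629 genes listed in the count files, and all 10 passed the filter on low counts that left 15470 genes for testing.

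Smooth muscle cells contract through actin, myosin and a set of proteins that bind or shape actin filaments. Many genes of this set are switched on by serum response factor (SRF), which binds the CArG box in promoters together with myocardin or its relatives. Several of them, Tagln and Acta2 among them, are also active in the embryonic heart muscle, and fibroblasts in culture can express them too. Pericytes are the mural cells of capillaries, which need signals from platelet-derived growth factor (PDGF) through its β receptor, encoded by Pdgfrb. DNMT1 copies CpG methylation onto the new DNA strand when cells divide.

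The cells came from heart ventricles of CD-1 mouse embryos at embryonic day 13.5, with the ventricles of a litter pooled. They were transfected with 12 nM negative siRNA or with 12 nM DNMT1 siRNA, a mixture of 4 siRNAs, in 3 cultures per treatment. After 72 h, cells that bound an antibody against VCAM1 were sorted on magnetic columns, and their poly(A) RNA was sequenced. The titles and the study's methods name DNMT1 as the target, while a treatment tag on the same 3 samples names DNMT3a siRNA, and the titles were followed.

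Expression is given as CPM, the reads counted on a gene scaled to a common library size after TMM normalization, which evens out differences in library composition. The targeted gene Dnmt1 stood at 159, 127 and 133 CPM with negative siRNA and at 35.6, 36.2 and 30.7 CPM with DNMT1 siRNA (log2 fold change −2.03, SE 0.11, adjusted p = 0.000192, edgeR quasi-likelihood test). Dnmt3a was at 251 ± 23.5 and 296 ± 3.40 CPM and Dnmt3b at 4.17 ± 0.02 and 4.83 ± 0.82 CPM (SD, n = 3 each), and neither passed the test (adjusted p = 0.0919 and 0.444). Vcam1, the gene of the sorting antigen, was at 297 ± 46.0 and 248 ± 4.89 CPM (adjusted p = 0.148). The libraries held 27852412 to 35896018 gene counts with negative siRNA and 13739561 to 16186310 with DNMT1 siRNA. Reads outside annotated exons made up 14.6 to 17.5% of counted reads with negative siRNA and 24.4 to 32.0% with DNMT1 siRNA (two-sided exact permutation test, p = 0.1, the smallest p of 3 against 3). Library size and both shares moved with the treatment in every culture. A fit with the libraries thinned to the smallest is given at the end, and the part of both shares in the results below was not tested.

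The label of the cells was set against marker genes. With negative siRNA, 11 cardiomyocyte markers summed to 1957 to 2538 CPM and 9 fibroblast markers to 36310 to 55890 CPM. The collagen genes Col1a1, Col1a2 and Col3a1 made up 34840 to 54320 CPM of the fibroblast sum. The other 6 fibroblast markers summed to 1476 to 1578 CPM. The lists differ in their number of genes, so that their sums do not rank cell types. Mean levels with negative siRNA ran from 60.7 (Lum) to 581 CPM (Postn) in these 6 and from 14.1 (Nkx2-5) to 776 CPM (Tnnt2) in the 11 cardiomyocyte markers. With negative siRNA, 5 epicardial markers summed to 1452 to 1719 CPM, among them Upk3b (mean 563 CPM), Msln (501) and Upk1b (369). Levels within the smooth muscle and pericyte lists were uneven. Acta2 was at 2564 to 4598 CPM and Mcam at 255 to 409 CPM over the 6 cultures, while Myh11, the smooth muscle myosin heavy chain, was at 4.57 to 31.3 CPM, and Kcnj8, Vtn and Higd1b, markers of pericytes, were at or below 0.452 CPM in every culture and were not tested. The 10 genes are described one by one. Negative siRNA replicate 2 stood apart from the other negative siRNA cultures in several of them.

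Promoter windows were looked up in a RefSeq table of GRCm38.p6, each 300 bases long with 250 before and 50 after the start of transcription. The table held 9 windows for 8 of the 10 genes, with 2 starts for Cald1, and none for Tagln and Pdgfrb. The number of CpG dinucleotides, the sites that DNMT1 methylates, ran from 5 to 33 per window, and the median of all 32851 windows was 7. The windows of Cnn1, Synpo2 and Cnn2 are shown as contractile genes with few, intermediate and many CpG (6, 17 and 33). The lowest number, 5, was at the second start of Cald1. CpG dinucleotides are in capitals.
Cnn1, chr9:22099003-22099302, plus strand: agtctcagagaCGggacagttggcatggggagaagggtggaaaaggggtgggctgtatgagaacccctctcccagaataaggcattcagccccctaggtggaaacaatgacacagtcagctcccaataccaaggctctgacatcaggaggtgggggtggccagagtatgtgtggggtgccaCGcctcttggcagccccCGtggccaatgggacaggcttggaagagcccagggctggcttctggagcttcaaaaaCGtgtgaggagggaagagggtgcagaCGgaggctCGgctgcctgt
Synpo2, chr3:123236100-123236399, minus strand: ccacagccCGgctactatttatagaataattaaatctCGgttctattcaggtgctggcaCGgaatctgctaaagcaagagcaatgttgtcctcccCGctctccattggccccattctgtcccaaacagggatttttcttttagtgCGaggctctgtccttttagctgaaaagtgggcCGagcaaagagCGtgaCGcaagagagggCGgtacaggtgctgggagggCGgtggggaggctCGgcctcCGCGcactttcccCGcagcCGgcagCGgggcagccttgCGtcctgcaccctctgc
Cnn2, chr10:79988350-79988649, plus strand: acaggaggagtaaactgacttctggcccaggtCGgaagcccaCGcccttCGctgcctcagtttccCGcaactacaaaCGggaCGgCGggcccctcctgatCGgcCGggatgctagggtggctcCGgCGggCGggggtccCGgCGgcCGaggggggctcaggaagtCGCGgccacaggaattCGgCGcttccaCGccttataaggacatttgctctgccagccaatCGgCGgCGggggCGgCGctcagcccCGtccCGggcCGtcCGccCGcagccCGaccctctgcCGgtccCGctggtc

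The Cnn2 window had more CpG than most, since 92.3% of all windows held as few or fewer. It was also the only window of these genes with a CArG box on either strand, CCTTATAAGG, whose first base lay 56 bases before the start. A CArG box was present in 1.63% of all windows. The MCAT motif (CATTCC on either strand), the binding motif of TEAD factors, was present in 14.7% of all windows and in those of Smtn, Lmod1 and the first start of Cald1. These matches describe the letters of the windows only, and no methylation was measured in the count files.

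The comparison asked which genes changed when DNMT1 was knocked down. A gene was called higher or lower when its adjusted p was below 0.05 and its fold change above 1.5. Of the 10 genes, 1 was called lower, Pdgfrb, and 0 were called higher by edgeR's quasi-likelihood test. By the same limits, 2.23% of the 15470 tested genes were called lower and 4.26% higher. At an unadjusted p below 0.05, 6 of the 10 were lower and 1 was higher, against 14.3% and 14.9% of all tested genes. DESeq2 called 2 lower and 1 higher, against 3.13% and 4.12% of the 15754 genes it gave an adjusted p. The exact test of edgeR called 3 lower and 0 higher, against 2.98% and 5.42% of tested genes. With the adjusted p alone, 3 of the 10 genes were lower (Pdgfrb, Cald1 and Synpo2), against 5.65% of all tested genes. All 3 DNMT1 siRNA cultures lay below all 3 negative siRNA cultures in 7 of the 10 genes and above them in 1, against 17.7% and 18.3% of all tested genes. The log2 fold change was below 0 in 8 of the 10, with a median of −0.37, against −0.0049 over all tested genes. Without negative siRNA replicate 2 the median was −0.29 and the same number of genes, 8, lay below 0. The genes were chosen with earlier results of these data known, so that these counts are no test of the set.

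**Figure D1:**
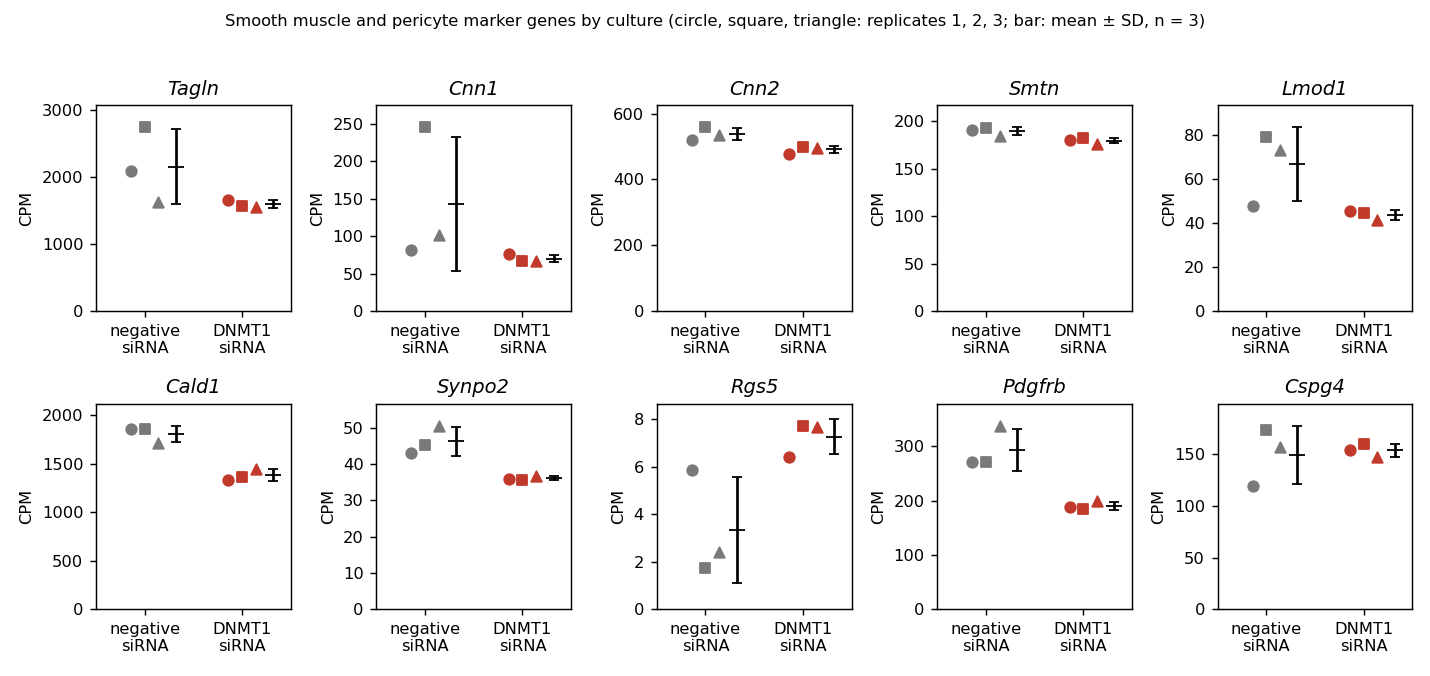
Expression of the 10 genes in each culture, in CPM on a linear axis from 0, for negative siRNA (grey) and DNMT1 siRNA (red). Circles, squares and triangles are replicates 1, 2 and 3, and bars give the mean ± SD (n = 3). The groups overlap for Tagln and Cspg4 only, and the DNMT1 siRNA cultures lie closer together in every panel.

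Levels were compared between genes as CPM per kb of exon. With negative siRNA the order ran from Tagln, with 1083 CPM per kb, through Cnn2 (219), Cald1 (150), Pdgfrb (53.4), Cnn1 (52.2), Smtn (43.2), Lmod1 (16.9), Cspg4 (12.5) and Synpo2 (3.53) to Rgs5 (0.736). Neighbours whose cultures overlapped in this order were Pdgfrb and Cnn1, Cnn1 and Smtn, and Lmod1 and Cspg4. With DNMT1 siRNA the levels were 803 for Tagln, 200 for Cnn2, 115 for Cald1, 41.0 for Smtn, 34.7 for Pdgfrb, 25.6 for Cnn1, 12.9 for Cspg4, 11.1 for Lmod1, 2.76 for Synpo2 and 1.60 for Rgs5. No neighbours overlapped there, and Smtn stood above Pdgfrb and Cnn1, and Cspg4 above Lmod1.

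Pdgfrb (ENSMUSG00000024620, chromosome 18) encodes the receptor through which PDGF-B recruits pericytes. It stood at 271, 270 and 337 CPM with negative siRNA and at 188, 184 and 198 CPM with DNMT1 siRNA. Every DNMT1 siRNA culture was below every negative siRNA culture, and the mean fell to 65.0% of the negative siRNA mean (log2 fold change −0.62, SE 0.10, adjusted p = 0.00682, edgeR quasi-likelihood test). The call rested close to the fold limit. Without negative siRNA replicate 3 the log2 fold change was −0.51 (adjusted p = 0.00686), under the fold limit, and without DNMT1 siRNA replicate 2 the adjusted p was 0.0537. Without negative siRNA replicate 2 it was −0.68 (adjusted p = 0.00151).

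Fibroblasts express Pdgfrb too. Of 9 fibroblast markers, 3 were called lower, the collagen genes Col1a1 (log2 fold change −0.65, adjusted p = 0.0376) and Col1a2 (−0.69, adjusted p = 0.0394) and the proteoglycan gene Dcn (−0.64, adjusted p = 0.0115). Col1a1 was at −0.42 and Col1a2 at −0.44 without negative siRNA replicate 2, under the fold limit, and without any 1 of the DNMT1 siRNA cultures both missed the adjusted p (0.115 to 0.163). The call of Dcn was lost without negative siRNA replicate 3 (−0.57) and without DNMT1 siRNA replicate 2 or 3 (adjusted p = 0.0704 and 0.0550). The summed level of the 9 was 36310 to 55890 CPM with negative siRNA and 27690 to 29530 CPM with DNMT1 siRNA. In the same list Thy1 was higher (0.36, adjusted p = 0.0137, under the fold limit) and Col3a1 (−0.42, adjusted p = 0.108), Postn (−0.21, adjusted p = 0.185) and Tcf21 (185 ± 19.5 and 185 ± 7.23 CPM, SD, n = 3 each, adjusted p = 0.976) were not called. The part of these markers in the Pdgfrb result was not tested. In bulk RNA, fewer cells of a type and less RNA per cell cannot be told apart.

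The closest genes to Pdgfrb in pattern, by Pearson correlation of log2 CPM over the 6 cultures among 15469 genes, were Axl (r = 0.996), Sdc3 (0.993) and Synpo2 (0.993). Axl was at 1132, 1106 and 1320 CPM with negative siRNA and 804, 818 and 838 CPM with DNMT1 siRNA. These correlations describe 6 cultures that fall into the study's groups, and share their libraries.

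Within the PDGF system, the ligand gene Pdgfd rose from 18.0 ± 1.47 to 31.5 ± 1.92 CPM (SD, n = 3 each, log2 fold change 0.81, SE 0.09, adjusted p = 0.00234), the only call among 6 ligand and receptor genes beside Pdgfrb. DESeq2 and the exact test each called 2 of the 6 higher, Pdgfd and Pdgfb. Pdgfb, which encodes the ligand that recruits pericytes, was at 4.35, 6.48 and 5.73 CPM with negative siRNA and 9.70, 8.59 and 7.31 CPM with DNMT1 siRNA, without overlap (log2 fold change 0.63, SE 0.19, adjusted p = 0.0606). It passed both limits without negative siRNA replicate 2 (0.77, adjusted p = 0.0199). Pdgfa passed the adjusted p alone (log2 fold change 0.48, adjusted p = 0.0139). The α receptor gene Pdgfra stood at 180 ± 34.1 and 137 ± 8.56 CPM (SD, n = 3 each, log2 fold change −0.40, adjusted p = 0.0833), and the ligand gene Pdgfc at 62.8 ± 9.95 and 47.3 ± 2.62 CPM (adjusted p = 0.0585). Per length, Pdgfrb took 69.7 to 77.6% of the summed level of both receptor genes with negative siRNA and 71.4 to 72.4% with DNMT1 siRNA. These ranges overlapped (two-sided exact permutation test, p = 0.4), so that a change in the balance of the receptor genes was not shown.

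Rgs5 (ENSMUSG00000026678, chromosome 1, 169655501 to 169695813) encodes a regulator of G protein signalling that marks pericytes. It was the rarest of the 10, with 219, 55 and 67 counts or 5.89, 1.75 and 2.40 CPM with negative siRNA, and 104, 115 and 102 counts or 6.42, 7.72 and 7.68 CPM with DNMT1 siRNA. All DNMT1 siRNA cultures lay above the others, but the gap to negative siRNA replicate 1 was small, and the gene was not called (log2 fold change 1.10, SE 0.40, adjusted p = 0.111). Without negative siRNA replicate 1 the log2 fold change was 1.81 (adjusted p = 0.00309), and without replicate 2 it was 0.78 (adjusted p = 0.124). Markers of endothelial cells, the neighbours of pericytes, had 2 of 6 called higher (Kdr and Emcn), 1 lower by the adjusted p alone (Tek) and a summed level of 56.0 to 93.4 CPM with negative siRNA and 89.0 to 104 CPM with DNMT1 siRNA. DESeq2 called 4 of the 6 endothelial markers higher and the exact test 2, with 0 lower in both. At an unadjusted p below 0.05, 5 were higher and 1 lower. In 4 of the 6 fits that left out 1 culture (negative siRNA replicate 3 or any DNMT1 siRNA culture) 0 endothelial markers were called, without negative siRNA replicate 1 the call was that of Emcn alone, and without negative siRNA replicate 2 the number was 5. Their part in the Rgs5 values was not tested. Of 8 other RGS genes of the same R4 family, 5 were tested and 0 were called by the quasi-likelihood test, with 1 lower at an unadjusted p below 0.05 and 1 called lower by DESeq2 and by the exact test, Rgs16 in both. Among them Rgs16 was at 13.5, 33.8 and 19.8 CPM with negative siRNA and 11.3, 12.2 and 11.5 CPM with DNMT1 siRNA (adjusted p = 0.0754), Rgs3 at 13.7 ± 1.86 and 14.1 ± 0.62 CPM and Rgs4 at 3.36 ± 1.67 and 2.15 ± 0.41 CPM (SD, n = 3 each). The genes with the most similar pattern to Rgs5 were Fam83a (r = 0.998), Elovl6 (0.995) and Erich1 (0.994). None of these 3 was called.

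Cspg4 (ENSMUSG00000032911, chromosome 9, 56865033 to 56899870) encodes the NG2 proteoglycan on the surface of pericytes. It stood at 119, 173 and 156 CPM with negative siRNA and at 154, 160 and 148 CPM with DNMT1 siRNA. The groups overlapped, with negative siRNA cultures both lowest and highest (log2 fold change 0.04, SE 0.13, adjusted p = 0.856).

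Of 15 other pericyte genes, 12 were tested, 1 was called higher and 0 lower, and their median log2 fold change was −0.0025. At an unadjusted p below 0.05, 3 were higher and 2 lower. DESeq2 called 1 higher and 1 lower, and the exact test 1 higher and 0 lower. The gene called was Gja4, which encodes the gap junction protein connexin 37, known mainly from arterial endothelium, with 4.54, 9.46 and 5.62 CPM and then 16.9, 16.9 and 12.1 CPM (log2 fold change 1.23, SE 0.27, adjusted p = 0.0241). It was not called without negative siRNA replicate 3 (1.14, adjusted p = 0.0594) or without DNMT1 siRNA replicate 1 (1.13, 0.0967), 2 (1.15, 0.116) or 3 (1.36, 0.0541). The adhesion molecule gene Mcam was at 289 ± 31.9 and 403 ± 8.58 CPM (SD, n = 3 each) and passed the adjusted p alone (log2 fold change 0.48, adjusted p = 0.0133). Cd248, which encodes endosialin of mural cells and fibroblasts, was at 178 ± 47.1 and 150 ± 7.06 CPM (adjusted p = 0.374).

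**Figure D2:**
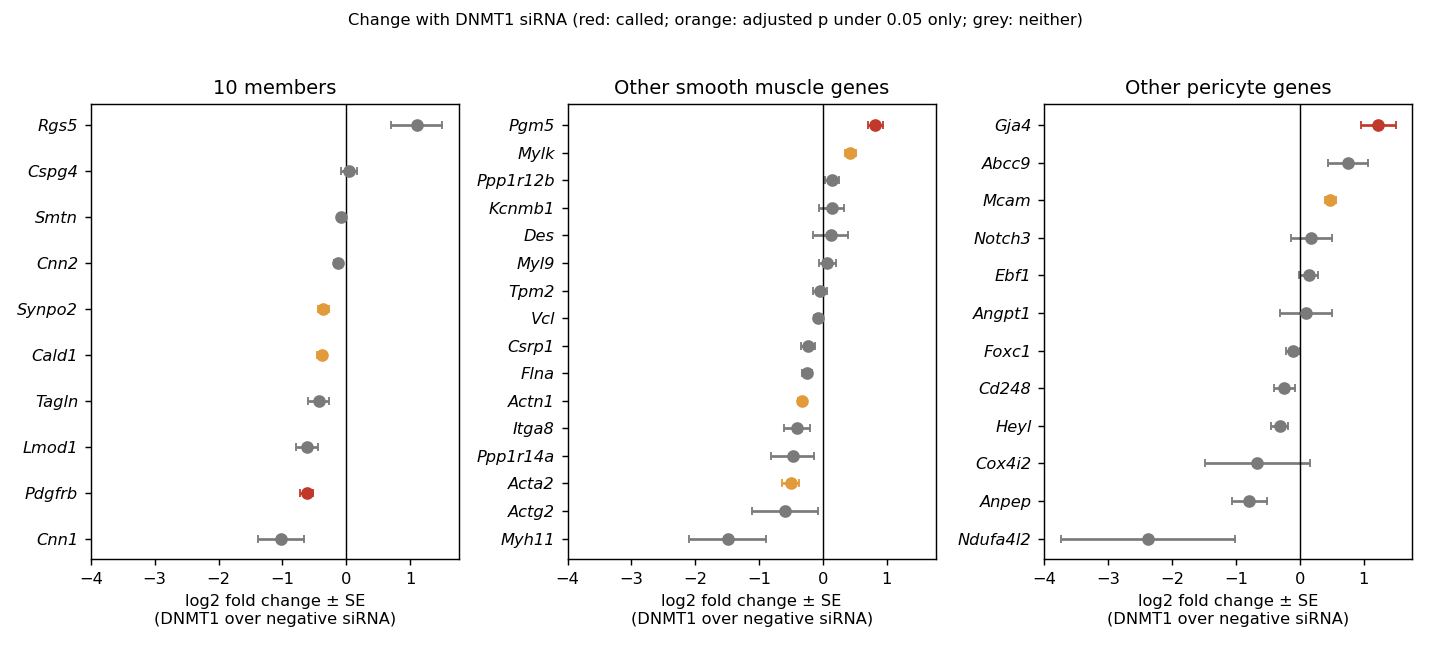
Log2 fold change (DNMT1 siRNA over negative siRNA, horizontal axis) with its SE for the 10 genes, 16 other smooth muscle genes and the 12 tested of 15 other pericyte genes. Red points were called, orange points passed the adjusted p alone and grey points passed neither. Pdgfrb is the only called gene of the 10, at −0.62, and Pgm5 (0.82) and Gja4 (1.23) are the only ones in the other panels, both higher.

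Tagln (ENSMUSG00000032085, chromosome 9, 45929619 to 45936058) encodes transgelin, an early marker of smooth muscle that binds actin. It stood at 2094, 2741 and 1624 CPM with negative siRNA and 1661, 1573 and 1553 CPM with DNMT1 siRNA. The lowest negative siRNA culture lay within the range of the DNMT1 siRNA cultures, and Tagln was not called (log2 fold change −0.43, SE 0.17, adjusted p = 0.128). It was called without negative siRNA replicate 3 (−0.60, adjusted p = 0.0208), and without replicate 2 the log2 fold change was −0.22 (adjusted p = 0.160). On the opposite strand, the exons of Tagln overlap those of Pcsk7 over 108 bases and those of the antisense gene Gm48529 over 1241 of 1988 bases. Gm48529 is not among the genes of the count files. Whether the counting used strand is not given in the sources used here. The genes with the closest pattern were Lgals1 (r = 0.998), Adamts15 (0.996) and Nt5dc2 (0.995). Lgals1, which encodes galectin 1, was at 938, 1130 and 765 CPM with negative siRNA and 784, 762 and 731 CPM with DNMT1 siRNA, and none of these 3 genes was called.

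Cnn1 (ENSMUSG00000001349, chromosome 9, 22099216 to 22109630) encodes calponin 1, an actin-binding protein of differentiated smooth muscle. It stood at 81.4, 245 and 102 CPM with negative siRNA and at 76.1, 67.0 and 67.0 CPM with DNMT1 siRNA. The DNMT1 siRNA cultures were all lower, but 1 negative siRNA culture carried most of the difference (log2 fold change −1.03, SE 0.36, adjusted p = 0.102). Without negative siRNA replicate 2 the log2 fold change was −0.39 with an adjusted p of 0.0338, under the fold limit, and without replicate 1 it was −1.31 with an adjusted p of 0.0323, past both limits. Cnn1 was thus lower in every setting tried, by an amount that depended on the culture left out.

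Cnn2 (ENSMUSG00000004665, chromosome 10, 79988584 to 79996062) encodes calponin 2, the form found in many cell types outside smooth muscle. Its window is the CpG-rich one shown above. It was at 521, 558 and 535 CPM with negative siRNA and 478, 499 and 496 CPM with DNMT1 siRNA, without overlap but with a small difference (log2 fold change −0.13, SE 0.06, adjusted p = 0.221). Smtn (ENSMUSG00000020439, chromosome 11, 3517523 to 3540612) encodes smoothelin, a protein of contractile smooth muscle. It was the steadiest of the 10, at 191, 192 and 185 CPM and then 180, 182 and 176 CPM (log2 fold change −0.08, SE 0.06, adjusted p = 0.432). Part of its exons, 714 bases, is shared with Gm11946 on the opposite strand.

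Cald1 (ENSMUSG00000029761, chromosome 6, 34598500 to 34775473) encodes caldesmon, which binds actin and tropomyosin and has a smooth muscle and a widespread form. It stood at 1854, 1854 and 1713 CPM with negative siRNA and at 1335, 1362 and 1450 CPM with DNMT1 siRNA. The groups were well apart, and the gene passed the adjusted p but not the fold limit (log2 fold change −0.39, SE 0.07, adjusted p = 0.0159). Without any 1 of the DNMT1 siRNA cultures Cald1 missed the adjusted p (0.0566 to 0.0995). Counts per gene do not separate the forms. Synpo2 (ENSMUSG00000050315, chromosome 3, 123076519 to 123236149) encodes synaptopodin 2, or myopodin, an actin-bundling protein of smooth and striated muscle. It was at 42.9, 45.2 and 50.5 CPM and then 36.0, 35.6 and 36.7 CPM, again apart, and passed the adjusted p alone (log2 fold change −0.36, SE 0.08, adjusted p = 0.0291). Synpo2 also missed the adjusted p when any 1 DNMT1 siRNA culture was left out (0.0978 to 0.137).

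Lmod1 (ENSMUSG00000048096, chromosome 1, 135324807 to 135368065) encodes leiomodin 1, the smooth muscle member of a family that starts new actin filaments. It stood at 47.8, 79.3 and 73.1 CPM with negative siRNA and at 45.6, 44.3 and 41.2 CPM with DNMT1 siRNA. All DNMT1 siRNA cultures were lower, the highest of them close to negative siRNA replicate 1, and the gene narrowly missed the adjusted p (log2 fold change −0.61, SE 0.17, adjusted p = 0.0530). It passed both limits without negative siRNA replicate 1 (−0.80, adjusted p = 0.00167), and without replicate 2 it did not (−0.46, adjusted p = 0.0699).

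Relatives of these genes were looked at next. Of 9 calponin, transgelin, smoothelin, leiomodin and synaptopodin relatives, 8 were tested, and 3 were called, all higher, while 3 had DNMT1 siRNA cultures entirely below the others (Smtnl2, Tagln2 and Cnn3). The called genes were Lmod2, from 4.78, 6.95 and 5.09 to 20.1, 17.1 and 16.9 CPM (log2 fold change 1.69, SE 0.17, adjusted p = 0.00125), Lmod3 (1.27, SE 0.23, adjusted p = 0.0117) and Synpo2l (1.20, SE 0.14, adjusted p = 0.00211). All 3 are the forms of striated muscle. Lmod3 was not called without DNMT1 siRNA replicate 1 (adjusted p = 0.0627) or replicate 2 (0.0712). Smtnl2 was lower by the adjusted p alone (−0.57, adjusted p = 0.0204, called by DESeq2 at −0.59), and the abundant relatives Synpo (0.08, and −0.07 without negative siRNA replicate 2), Tagln2 (−0.28) and Cnn3 (−0.13) were not called, with adjusted p of 0.727, 0.0569 and 0.193.

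Shares within each family were computed from the level per length. Each share was taken within 1 culture, so that a scaling of the library does not enter. Lmod1 held 80.1, 83.1 and 84.6% of the leiomodin level with negative siRNA and 49.4, 52.1 and 51.3% with DNMT1 siRNA. The shares did not overlap (82.6% ± 2.29 and 51.0% ± 1.42, SD, n = 3 each, two-sided exact permutation test, p = 0.1, the smallest possible). Lmod2 held 14.1% ± 2.16 and 41.9% ± 1.67 of it, and Lmod3 3.26% ± 0.83 and 7.11% ± 0.46 (SD, n = 3 each). Synpo2 went from 4.03% ± 0.61 to 2.70% ± 0.03 of the synaptopodin level and Synpo2l from 8.48% ± 2.84 to 16.4% ± 1.71 (SD, n = 3 each), again without overlap. Synpo, which held most of that level, went from 87.5% ± 3.44 to 80.9% ± 1.69 (SD, n = 3 each), also without overlap. Tagln held 77.5% ± 2.92 and 76.0% ± 0.69 of the transgelin level, with overlapping cultures (two-sided exact permutation test, p = 0.6, SD, n = 3 each). Cnn1 took 14.0% ± 7.17 and 8.35% ± 0.74 of the calponin level, with overlap and with 22.2% in negative siRNA replicate 2 alone (two-sided exact permutation test, p = 0.2, SD, n = 3 each). In total 14 shares in 5 families were tested, and with 3 against 3 none can pass after adjustment.

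**Figure D3:**
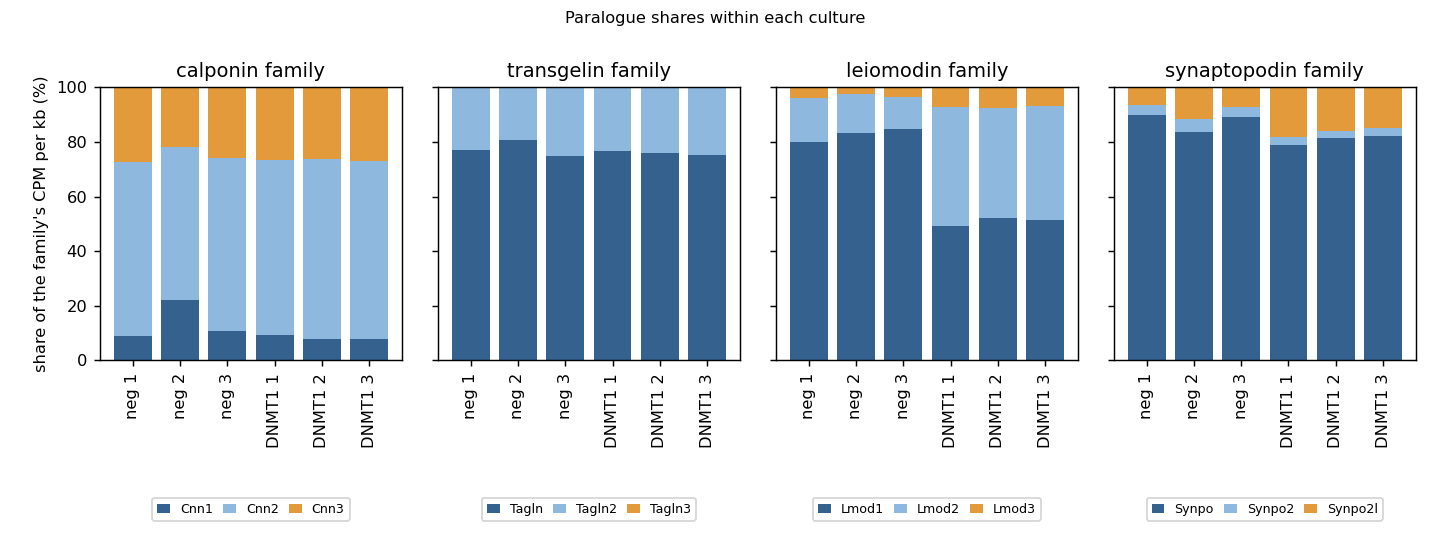
Share of each paralogue in the summed CPM per kb of its family (vertical axis, percent) in each culture, with negative siRNA replicates (neg 1 to 3) on the left of each panel and DNMT1 siRNA replicates on the right. Lmod1 takes 80.1 to 84.6% of the leiomodin bars with negative siRNA and 49.4 to 52.1% with DNMT1 siRNA, while the transgelin bars overlap between treatments.

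Lmod2, Lmod3 and Synpo2l moved beside the markers of cardiomyocytes. Of 11 such markers, 9 were called higher (Myh6, Tnnt2, Tnni3, Actn2, Ttn, Nkx2-5, Ryr2, Pln and Myl2) and 0 lower, against 4.26% and 2.23% of all tested genes. When 1 culture was left out, 6 to 11 were called. The log2 fold change was above 0 in all 11. Their summed level was 1957 to 2538 CPM with negative siRNA and 4355 to 5283 CPM with DNMT1 siRNA. The 7 contractile genes described here summed to 4283 to 5715 CPM and to 3763 to 3821 CPM. The part of the cardiomyocyte markers in the family shares was not tested. Epicardial markers had 1 of 5 called lower, Krt19 (log2 fold change −0.82). Its call was lost without negative siRNA replicate 3 or any 1 DNMT1 siRNA culture, with adjusted p of 0.0557 to 0.0913. The 5 epicardial markers summed to 1452 to 1719 CPM with negative siRNA and 1634 to 1705 CPM with DNMT1 siRNA. Macrophage markers had 0 of 6 called (3 lower by DESeq2, by the exact test and at an unadjusted p below 0.05). They summed to 9.94 to 26.4 and 8.83 to 13.9 CPM. Of 6 erythroid markers 1 was tested and not called, with Hba-a2 at 0 in all cultures.

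**Figure D4:**
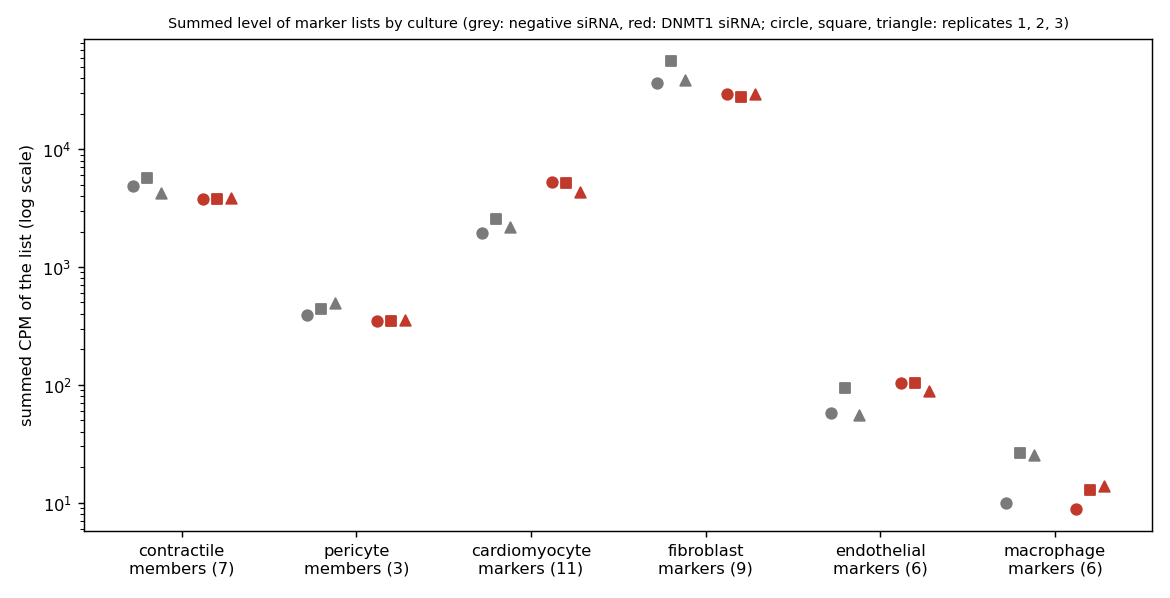
Summed CPM (vertical axis, log scale) of the 7 contractile and 3 pericyte genes and of marker lists of other cell types in each culture, with grey for negative siRNA, red for DNMT1 siRNA, and circles, squares and triangles for replicates 1, 2 and 3. Cardiomyocyte markers lie higher with DNMT1 siRNA (4355 to 5283 CPM), while fibroblast markers (27690 to 29530 CPM) and the contractile genes (3763 to 3821 CPM) lie lower.

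Of 16 other genes of smooth muscle, all were tested, 1 was called higher and 0 lower, and the median log2 fold change was −0.16. At an unadjusted p below 0.05, 2 were higher and 4 lower, and DESeq2 and the exact test each called 1 higher and 0 lower. The number called lower was 3 without negative siRNA replicate 1 and 1 without replicate 3. Pgm5, which encodes aciculin of muscle adhesion sites, rose from 11.2 ± 1.52 to 19.9 ± 0.39 CPM (SD, n = 3 each, log2 fold change 0.82, SE 0.12, adjusted p = 0.00528). Acta2, smooth muscle α-actin, was at 3341, 4598 and 3208 CPM with negative siRNA and 2657, 2564 and 2633 CPM with DNMT1 siRNA, lower by the adjusted p alone (log2 fold change −0.51, SE 0.14, adjusted p = 0.0457). It was at −0.32 without negative siRNA replicate 2 (adjusted p = 0.00501), and without any 1 of the DNMT1 siRNA cultures its adjusted p was 0.128 to 0.174. The actin cross-linker gene Actn1 was lower by the adjusted p alone (−0.33, adjusted p = 0.0174) and Flna, the filamin A gene, was not (−0.25, adjusted p = 0.0711). Mylk, the gene of the kinase that starts smooth muscle contraction, was higher by the adjusted p alone (0.42, adjusted p = 0.0180).

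Among SRF and its partners, 1 of 6 was called. Myocd, the gene of myocardin, stood at 34.5, 50.4 and 35.0 CPM with negative siRNA and at 61.8, 56.3 and 62.5 CPM with DNMT1 siRNA (log2 fold change 0.59, SE 0.15, adjusted p = 0.0361). The call lay near both limits, and in 5 of the 6 fits that left out 1 culture (all but negative siRNA replicate 2) it was lost, with adjusted p of 0.0665 to 0.137. In DESeq2 (0.57) and without the filter (0.56) Myocd fell under the fold limit. Of the 6 genes, DESeq2 called 0, and the exact test called 1 higher and 0 lower. At an unadjusted p below 0.05, 4 were higher and 0 lower, against 14.9% and 14.3% of all tested genes. Mrtfa, which encodes a related coactivator, was higher by the adjusted p alone (0.37, adjusted p = 0.00906). Srf itself was at 158 ± 3.54 and 174 ± 6.07 CPM (SD, n = 3 each, log2 fold change 0.14, adjusted p = 0.169) and Mrtfb at 82.4 ± 6.02 and 93.9 ± 3.83 CPM (adjusted p = 0.144).

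The spread between cultures differed between treatments. The coefficient of variation of the CPM was larger with negative siRNA in 10 of 10 genes, and in 72.0% of all tested genes. Over the 10, the median coefficients were 15.9% and 3.95% (negative, then DNMT1 siRNA), against 12.2% and 6.88% over all tested genes. Negative siRNA replicate 2 was the highest negative siRNA culture in 6 of the 10, and in 38.1% of all tested genes. Its Cnn1 level was 2.67 times the mean of replicates 1 and 3, a ratio that 1.15% of tested genes reached or passed. For Tagln the ratio was 1.47, reached by 8.37% of genes, and for Lmod1 it was 1.31. For Rgs5 it was 0.42, and 1.75% of tested genes had a ratio as low.

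Genes of the other smooth muscle and pericyte lists that stood out in the same culture were picked after their values were seen. Myh11 was at 5.51, 31.3 and 8.24 CPM with negative siRNA and 6.11, 4.57 and 5.27 CPM with DNMT1 siRNA (log2 fold change −1.49, and −0.36 without this culture). Ndufa4l2, which encodes a mitochondrial protein and serves as a pericyte marker, was at 0.376, 42.3 and 1.79 CPM and then 2.53, 2.89 and 3.16 CPM, so that its log2 fold change of −2.37 (adjusted p = 0.292) became 1.46 without this culture (adjusted p = 0.0855). Notch3, the receptor gene of vascular mural cells, was at 35.6, 105 and 57.4 CPM and then 73.7, 74.0 and 76.1 CPM. Its log2 fold change was 0.18 (adjusted p = 0.754), and without this culture it was called higher (0.69, adjusted p = 0.0231). The fibroblast sum was also highest in this culture, at 55890 CPM, as were the endothelial (93.4 CPM) and cardiomyocyte (2538 CPM) sums of the negative siRNA cultures. The 3 collagen genes carried the fibroblast excess, with 34840, 54320 and 36920 CPM in negative siRNA replicates 1, 2 and 3. The other 6 fibroblast markers summed to 1476, 1578 and 1573 CPM in these cultures. Of the negative siRNA cultures, replicate 2 had the lowest epicardial sum, 1452 CPM.

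**Figure D5:**
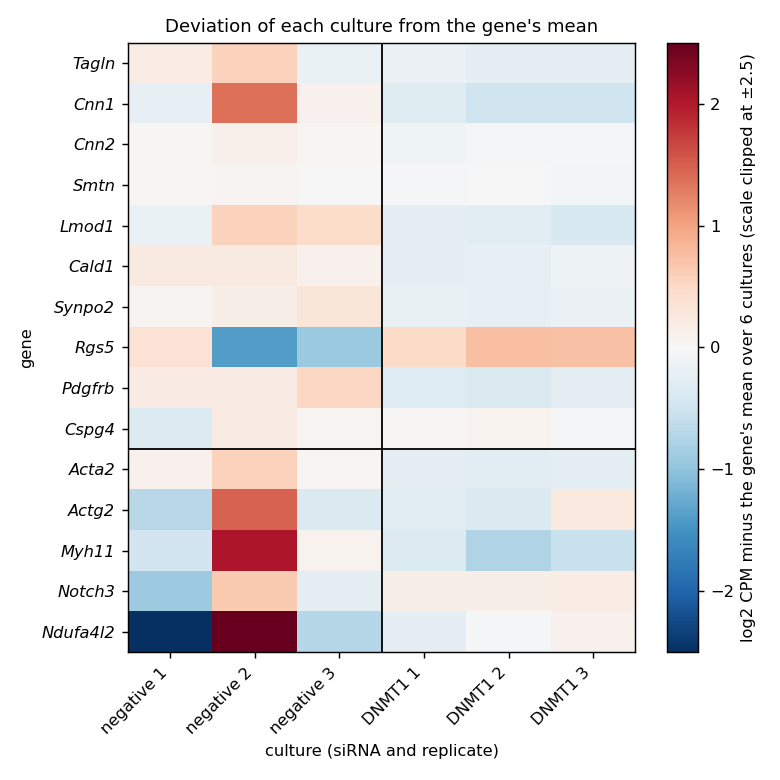
Deviation of each culture (columns) from the gene's mean log2 CPM over 6 cultures (colour scale, clipped at ±2.5), for the 10 genes above the horizontal line and 5 other genes below it. Negative siRNA replicate 2 is the reddest column for Cnn1 and Myh11 and the bluest for Rgs5, while the DNMT1 siRNA columns resemble each other.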

How the data were processed

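RNA-Seq counts of 6 cultures, 3 per treatment, were analysed. The authors mapped reads to mm10 (GRCm38) with TopHat2, after FastQC, used HTSeq to count them on Ensembl genes, and deposited the raw counts. Versions and the strand setting are not given in the sources used here. Rows that name no gene (reads outside exons or ambiguous) were left out of library sizes, and amounted to 14.6 to 32.0% and 3.58 to 6.35% of counted reads.

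Counts were normalized (TMM), filtered (filterByExpr, minimum count 10, total 15) and tested with the quasi-likelihood F test of edgeR 4.0.16 in R 4.3.3, with Benjamini-Hochberg adjustment over 15470 genes. Every adjusted p for a gene comes from this test unless another is named. Limits were an FDR of 0.05 and a fold change of 1.5. The SE is the size of the log2 fold change over the root of F. Marker sums, shares and correlations were computed in Python 3.11.15 from CPM, the correlations with a prior count of 2. Gene models and lengths came from GENCODE M21 (GRCm38), which held 42462 of the 43629 genes, and is newer than the authors' annotation. The fit was tested on simulated data.

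The members and gene lists were chosen with earlier results of these data known. Named were all 10 genes, and of each other list the called genes and the most abundant uncalled ones, and any at 0 in all cultures. Genes past the adjusted p alone were added after their values were seen, and lists of other cell types are given in part. No source says that cultures came from separate litters, so p-values measure the spread between cultures, which may be technical. Correlations of deviations between cultures of the same number were 0.0064, −0.0208 and 0.0274, and no pairing was assumed. Alternatives were RLE scaling, no filter, DESeq2 1.42.0, edgeR's exact test, a replicate block, libraries thinned to the smallest, the FDR alone and leaving out each culture.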

Additional observations from a re-analysis of the deposited data

How the results depend on the processing

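For the members, the called genes and the genes printed from the lists, 674 values over all alternatives kept their direction and side of the limits, 55 were no longer past them, 28 newly passed and 11 reversed, none of them called in the reported test. With 1 culture left out, log2 fold changes ran from −0.099 to 0.16 for Cspg4, −0.12 to 0.69 for Notch3, −2.95 to 1.46 for Ndufa4l2, −0.068 to 0.197 for Synpo, −0.056 to 0.128 for Rgs3 and −0.0584 to 0.0915 for Tcf21. Rgs3 was at −0.0311 in thinned libraries, and Tcf21 at −0.0241 without the filter and −0.02 in DESeq2. Without the filter, 994 genes were called higher and 701 lower, with 1 of the 10 genes higher (Rgs5) and 3 lower (Pdgfrb, Cnn1 and Lmod1). DESeq2 called 1 higher (Rgs5) and 2 lower (Pdgfrb and Lmod1), the exact test 3 lower (Pdgfrb, Cnn1 and Lmod1) and thinned libraries 2 lower (Pdgfrb and Lmod1). With the FDR alone, 1054 genes were higher and 874 lower, 3 of the 10 among them. With 1 culture left out, 255 to 823 genes were called higher and 112 to 472 lower, the lowest counts in both directions without DNMT1 siRNA replicate 2 (255 and 112). Without DNMT1 siRNA replicate 1 the counts were 316 and 146, and without replicate 3 they were 314 and 145. In these fits 0 to 1 of the 10 genes were called higher and 0 to 3 lower, with 1 higher and 3 lower without negative siRNA replicate 1 and 0 lower without DNMT1 siRNA replicate 2. With the replicate block, 513 genes were higher and 285 lower, and Pdgfrb kept its call (−0.61, adjusted p = 0.0125), while Cald1 and Synpo2 had adjusted p of 0.0524 and 0.0557, and Acta2 of 0.0721. Calls lost with the block were those of Myocd (0.0570), Col1a1 (0.0605), Col1a2 (0.0683), Kdr (0.0582) and Myl2 (0.0696). The cause of these changes was not tested. RLE scaling moved the median log2 fold change by −0.0022. Rgs5 rests on 55 to 219 counts per culture, and thinning the libraries left it at 1.09.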
